A study of Homo sapiens with 21 samples.

Results

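The 47 genes described here encode translation initiation and elongation factors of the cytosol, together with a few proteins that act directly on them. They were chosen by name, as the EIF and EEF genes of a fixed list whose Ensembl identifiers occur in both count tables of the study, and make up 47 of the 60668 genes in each table. All 47 had enough reads to be tested in both tables, and the lowest count of any of them in any library was 2649. The study measured polyA-selected RNA in HCC1806, an established human triple-negative breast cancer cell line grown attached in DMEM with serum. It holds 21 libraries in 7 groups of 3, and its title sets joint overexpression of 3 splicing factors beside overexpression of MYC, a transcription factor that drives growth genes. In the first table, 3xSR cells overexpress the genes SRSF2, SRSF3 and SRSF7 at once by the title and label, and MYC-OE cells overexpress MYC by theirs. The 3xCTL cells, the one control of that table, serve for both, although the labels do not say whether they carry the vector used for MYC-OE, and each MYC-OE comparison rests on that. In the second, the cells labelled SRSF2-OE, SRSF3-OE and SRSF7-OE are labelled as overexpressing 1 of the splicing factors each, and 1xCtrl cells are labelled as carrying a single plasmid as control. SRSF2, SRSF3 and SRSF7 are SR proteins, which bind pre-mRNA and act in its splicing. The labels give no added agent or promoter for any group and do not say whether a line is a clone or a pool. Nor do they say whether replicates came from separate cultures, so p-values measure the spread between these libraries, which may be technical.

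Translation begins when eIF2, bound to GTP, brings the initiator tRNA to the small ribosomal subunit, which eIF3 keeps ready and eIF4 factors load onto the capped end of an mRNA. eIF1 and eIF1A guard start codon choice, eIF5 and eIF5B complete it and join the large subunit, and eIF2B recharges eIF2 with GTP. eEF1 then delivers each aminoacyl-tRNA, eEF2 moves the ribosome along, and eIF5A relieves stalled peptide bonds.

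Total counts ranged from 143269192 to 303323552 per library. Levels are given as CPM, counts divided by the scaled library size and set to a common scale, and a gene is said to have risen or fallen where edgeR's quasi-likelihood test gave a Benjamini-Hochberg adjusted p under 0.05 over all genes tested. Libraries differed in how their counts depended on the GC content of the transcript, and 1 control library in each table stood apart. The log2 deviation at 60% GC minus that at 40% was 0.57 in 1xCtrl replicate 2 against -0.15 and -0.33 in the other 1xCtrl libraries, and -0.25 in 3xCTL replicate 2 against 0.24 and 0.24 in the other 3xCTL libraries. The same measure lay between -0.33 and -0.15 in the 3xSR libraries, 0.12 and 0.26 in MYC-OE, -0.30 and -0.14 in SRSF3-OE, -0.01 and 0.07 in SRSF2-OE and 0.01 and 0.30 in SRSF7-OE, so it also moved with the groups. Counts of changed genes are therefore given with and without the libraries that stood apart. The targeted genes were checked first. MYC rose by 0.90 log2 in MYC-OE and by 0.75 in 3xSR (adjusted p = 5.7e-08 and 4e-07 by edgeR), and SRSF3 and SRSF7 rose in 3xSR (0.31 and 0.44) and in their own lines (0.49 and 0.26). Both also rose in the libraries labelled SRSF2-OE (0.30 and 0.24, adjusted p = 0.0079 and 0.0068 by edgeR), and MYC rose in SRSF3-OE and SRSF7-OE (0.26 and 0.27, adjusted p = 0.0041 and 0.0061; these 2 calls were lost under 8 and 5 of 16 other settings). SRSF2 did not rise in the libraries labelled SRSF2-OE (-0.16, adjusted p = 0.098 by edgeR) or 3xSR (-0.06, adjusted p = 0.39), and it fell in MYC-OE (-0.48) and SRSF7-OE (-0.38). The counts do not tell a construct that lacks the counted exons from a label that does not hold, so SRSF2-OE and 3xSR stand below for the libraries so labelled, and every value of theirs, the sum of single effects included, carries that limit. Basal epithelial markers were abundant in every library (KRT5 at 1600 to 2651 CPM), ESR1 was at 6.49 to 11.5 CPM and PGR at 0 in 12 of the 21 libraries. ERBB2, the other receptor gene read, was at 99.6 to 183.5 CPM. Leukocyte markers summed to 6.19 to 15.7 CPM in the control libraries and 16.6 to 36.5 CPM in the overexpressing ones, nearly all of it CD68, whereas PTPRC, the leukocyte-defining CD45 gene, stayed at 0.126 to 0.539 CPM; the part of these markers in the results was not tested.

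The translation factor genes rose most widely in the lines labelled with SRSF3 or SRSF2 alone. In SRSF3-OE 34 of the 47 rose and none fell, where 29.2% of the 24362 genes tested were called, 15.0% higher and 14.1% lower. In SRSF2-OE 25 rose and 2 fell, where 23.5% of all genes were called, 11.6% higher and 11.9% lower. In SRSF7-OE 8 rose and 2 fell, where 17.3% were called, 9.03% higher and 8.26% lower. In 3xSR 8 rose and 3 fell, and 29.0% of the 23160 genes tested in that table were called, 15.3% higher and 13.7% lower. In MYC-OE 9 rose and 5 fell, and 35.3% of all genes were called, 18.0% higher and 17.3% lower. The share of the 47 genes that was called, 72.3% in SRSF3-OE and 57.4% in SRSF2-OE, lay above that of all genes, and the share in SRSF7-OE (21.3%), 3xSR (23.4%) and MYC-OE (29.8%) lay near or below it. With the control library that stood apart left out, the shares in these last 3 lines also lay above it, as given below. Their median log2 fold change was 0.31 in SRSF3-OE and 0.23 in SRSF2-OE, beside medians over all genes of -0.03 and -0.01. It was 0.10 in SRSF7-OE, 0.06 in 3xSR and 0.03 in MYC-OE, beside -0.0048, -0.0038 and -0.0046 over all genes.

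**Figure D1:**
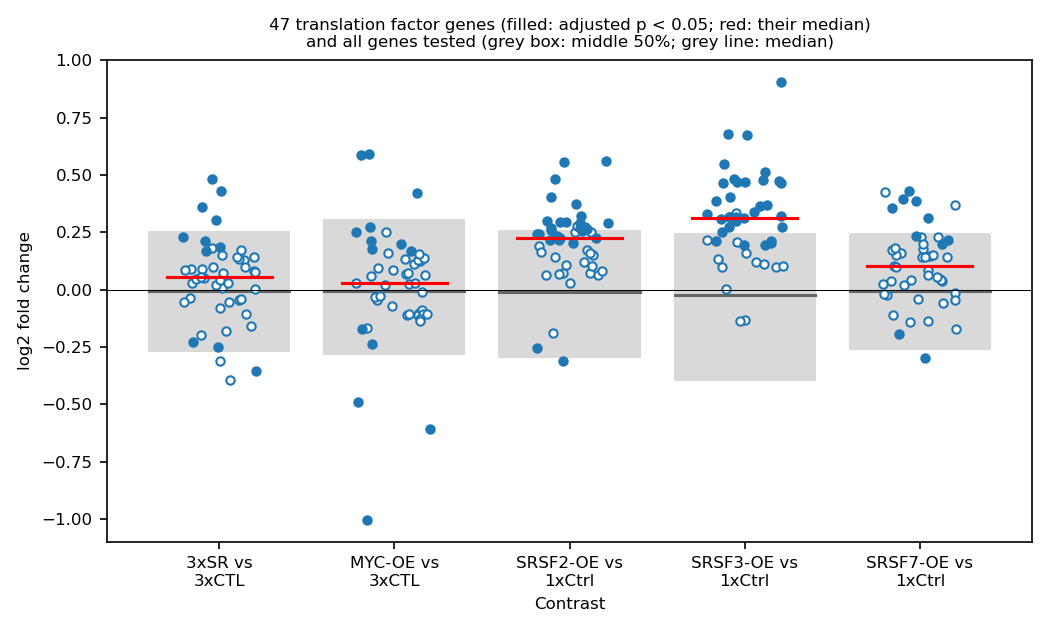
Log2 fold change of each of the 47 genes (circles, filled where the adjusted p is under 0.05) in each line against its own control, with their median in red; the grey box spans the middle 50% of all genes tested and the grey line their median. In SRSF3-OE 30 of the 47 lie above the upper quartile of all genes (0.24) and none below the lower quartile, while in MYC-OE 3 lie above and 3 below the quartiles.

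The counts in single lines share the 1xCtrl libraries, and those of 3xSR and MYC-OE share the 3xCTL libraries. The 47 genes took the smallest part of all counts in 1xCtrl, 1.52% ± 0.005 (SD, n = 3), and each of those libraries lay below every other library of the study. It was 1.65% ± 0.061 in 3xCTL, 1.70% ± 0.066 in the 3xSR group and 1.73% ± 0.019 in MYC-OE. Among the single lines it was 1.72% ± 0.091 with SRSF2, 1.70% ± 0.061 with SRSF3 and 1.67% ± 0.030 with SRSF7 (SD, n = 3 each). Across tables, 16 of the 47 were lower in all 1xCtrl libraries than in any 3xCTL library and 1 (EIF4A2) was higher, with a median log2 ratio of -0.16; such levels were set across tables that have no library in common.

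Single libraries moved these counts. Without 3xCTL replicate 2, 26 genes were called in 3xSR (18 higher, 8 lower) and 22 in MYC-OE (17 higher, 5 lower), 55.3% and 46.8% of the 47 beside 38.5% and 37.7% of all genes. Without 1xCtrl replicate 2, 26 were called in SRSF2-OE (23 higher, 3 lower), 35 in SRSF3-OE (34 higher, 1 lower) and 20 in SRSF7-OE (15 higher, 5 lower), which is 55.3%, 74.5% and 42.6% beside 30.0%, 32.1% and 29.2% of all genes. The share of the 47 then lay above that of all genes in all 5 lines. These omissions also widened some gaps in GC dependence. The 3xCTL libraries left were at 0.24 and 0.24, beside -0.33 to -0.15 in 3xSR. Those left of 1xCtrl were at -0.15 and -0.33, beside 0.01 to 0.30 in SRSF7-OE. With all libraries and the GC trend removed, the shares in 3xSR, MYC-OE and SRSF7-OE were 38.3%, 51.1% and 51.1%. Those of all genes were then 33.2%, 43.3% and 28.8%. Each gene called with all libraries in 3xSR, MYC-OE and SRSF7-OE was also called without the library that stood apart, as were 22 of 27 in SRSF2-OE and 30 of 34 in SRSF3-OE. The 3xSR count fell to 7 without 3xCTL replicate 1 and to 6 without 3xSR replicate 3, and the MYC-OE count to 9 without MYC-OE replicate 1 or 2. The SRSF2-OE count fell to 14 without 1xCtrl replicate 1, SRSF2-OE replicate 1 or SRSF2-OE replicate 2, the SRSF3-OE count to 22 without 1xCtrl replicate 1 or SRSF3-OE replicate 3, and the SRSF7-OE count to 5 without 1xCtrl replicate 1 or SRSF7-OE replicate 3. Scaling by total counts alone moved the median of all genes in SRSF3-OE to -0.14, and 25 of the 47 then rose and EIF4G3, a relative of the eIF4G1 scaffold, fell, with the median of the 47 still 0.34 above that of all genes, as with the main scaling. All genes called then split into 2296 higher and 4862 lower, against 3666 and 3442 with the main scaling. In SRSF2-OE the same scaling left 17 higher and 3 lower, with 2241 of all genes higher and 3860 lower against 2823 and 2910. In MYC-OE it gave 8 higher and 8 lower (3772 and 4670 of all genes, against 4173 and 4009), and in SRSF7-OE upper-quartile scaling gave 5 higher and 3 lower (1718 and 2274 of all genes, against 2201 and 2013).

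**Figure D2:**
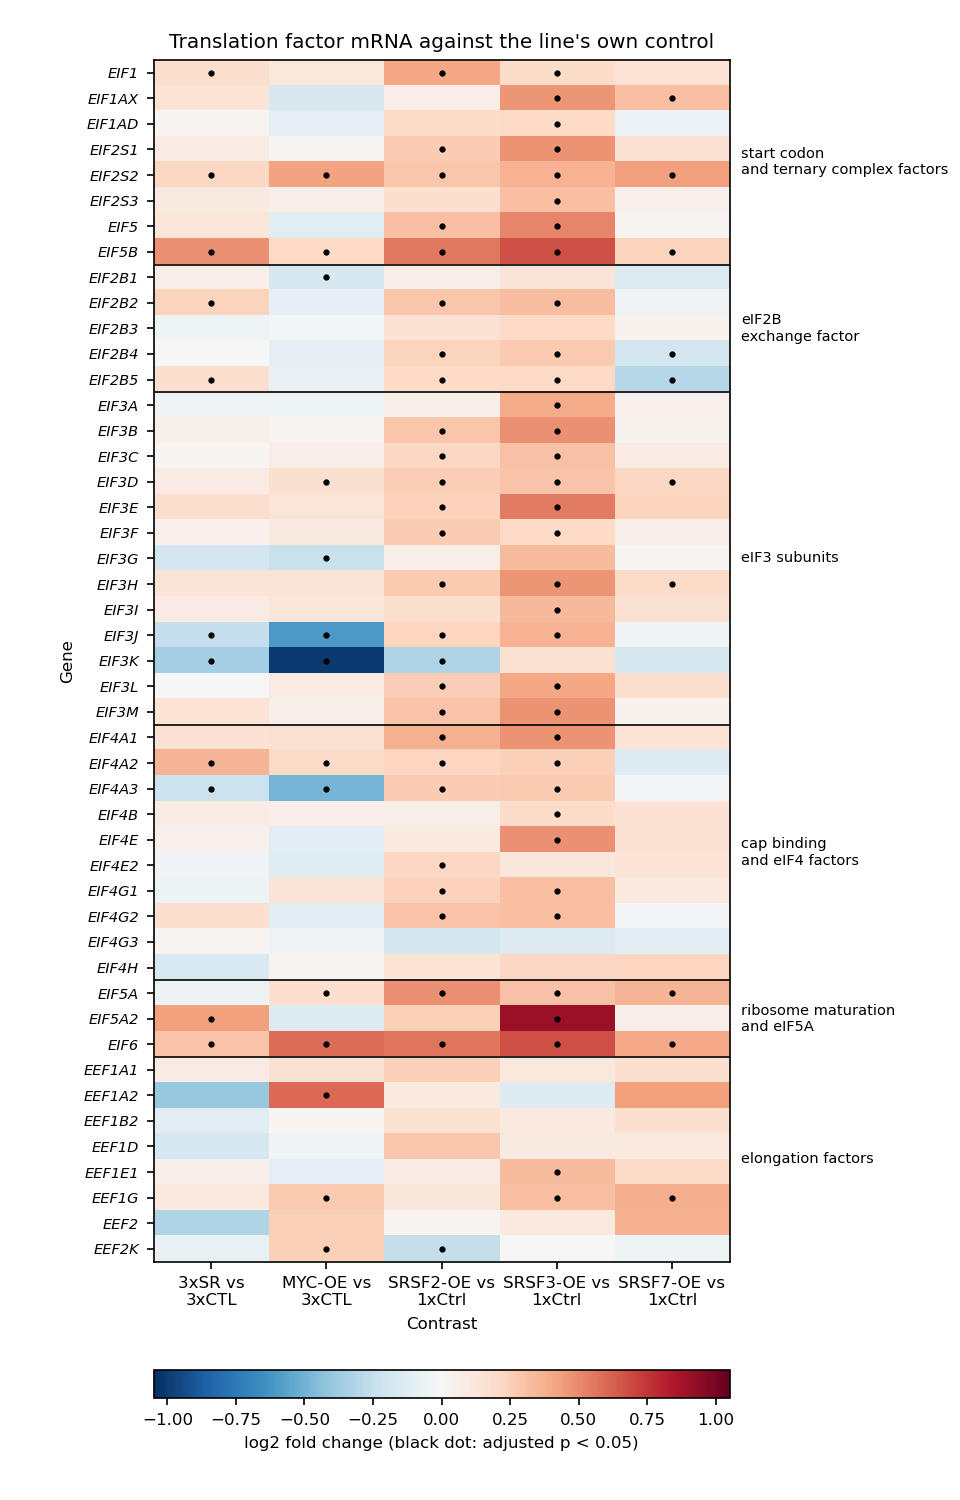
Log2 fold change (colour) of the 47 genes, grouped by role (rows), in the 5 lines against their own controls (columns); a black dot marks an adjusted p under 0.05. EIF6, EIF5B and EIF2S2 carry a dot in every column, and the deepest blue is EIF3K in MYC-OE (-1.0).

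The factors of start codon choice and the eIF2 complex numbered 8, and all 8 rose in SRSF3-OE, with a median of 0.42 log2. Of these, 5 rose in SRSF2-OE, 3 in 3xSR, 3 in SRSF7-OE and 2 in MYC-OE, and none fell in any line. EIF5B, EIF2S2 and, from another role, EIF6 were the genes of the 47 that rose in all 5 lines.

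EIF5B (chr2:99337353-99401326, plus strand, GRCh38) encodes the GTPase that joins the large ribosomal subunit. It was at 167, 199 and 187 CPM in 3xCTL and at 275, 240 and 258 CPM in 3xSR, a log2 fold change of 0.48 (SE 0.069, adjusted p = 0.00028 by edgeR, n = 3 each). MYC-OE libraries, at 214, 208 and 218 CPM, also lay above all 3xCTL libraries, but only by 0.21 (SE 0.069, adjusted p = 0.032 by edgeR). The 3xSR and MYC-OE libraries did not overlap, and EIF5B was lower in MYC-OE than in 3xSR by edgeR (-0.27, adjusted p = 0.0095), a call lost with the GC trend of each library removed (-0.09, adjusted p = 0.18). Among the single lines it was at 178, 152 and 183 CPM in 1xCtrl, 248, 261 and 244 in SRSF2-OE, 286, 262 and 271 in SRSF3-OE and 198, 205 and 200 in SRSF7-OE. All single-line libraries lay above all 1xCtrl libraries. The fold changes were 0.56 (adjusted p = 0.00013), 0.67 (1.8e-05) and 0.23 (0.037) by edgeR. The call in MYC-OE was lost without 3xCTL replicate 1 or 3 or any of the MYC-OE replicates (adjusted p up to 0.107 by edgeR), with total counts alone (0.0571) and with the replicate block (0.0626). That in SRSF7-OE was lost without SRSF7-OE replicate 2 or 3 (up to 0.0748), with upper-quartile scaling (0.119) and with the block (0.0641).

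EIF2S2 (chr20:34088298-34112332, minus strand), the beta subunit of eIF2, was at 227, 252 and 202 CPM in 3xCTL, 278, 249 and 262 in 3xSR and 306, 299 and 308 in MYC-OE. Only the MYC-OE libraries were clear of the control, and the rise there was 0.42 (SE 0.073, adjusted p = 0.00078 by edgeR). In 3xSR it was 0.21 (adjusted p = 0.047 by edgeR), a call lost without 3xCTL replicate 1 or 3 or 3xSR replicate 1 or 3 (0.13 and adjusted p = 0.169 without 3xCTL replicate 3) and with upper-quartile scaling (0.0524), total counts alone (0.0578), no filter (0.0741) or the replicate block (0.0693). In the single lines EIF2S2 was at 224, 212 and 250 CPM in 1xCtrl, 294, 287 and 260 in SRSF2-OE, 308, 272 and 305 in SRSF3-OE and 302, 311 and 311 in SRSF7-OE. The groups did not overlap with 1xCtrl. EIF2S2 rose by 0.29, 0.37 and 0.43 (adjusted p = 0.011, 0.0022 and 0.0021 by edgeR), the first of these lost without 1xCtrl replicate 1, SRSF2-OE replicate 1 or SRSF2-OE replicate 2 (adjusted p up to 0.0686). The alpha subunit, EIF2S1, rose in SRSF2-OE and SRSF3-OE (0.27 and 0.47) and the gamma subunit, EIF2S3, in SRSF3-OE (0.32).

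EIF1, which keeps the scanning ribosome from starting at poor codons, was at 203, 186 and 216 CPM in 1xCtrl and 272, 270 and 259 CPM in SRSF2-OE. The groups were well apart, with a rise of 0.41 (SE 0.063, adjusted p = 0.00053 by edgeR), and the level in SRSF2-OE was above that in SRSF3-OE (244, 225 and 223 CPM; SRSF3-OE against SRSF2-OE -0.21, adjusted p = 0.024). EIF1 also rose in SRSF3-OE (0.19, adjusted p = 0.032) and 3xSR (0.19, adjusted p = 0.021 by edgeR). The SRSF3-OE call was lost without 1xCtrl replicate 1 or 2 or SRSF3-OE replicate 1 or 3 (0.10 and adjusted p = 0.165 without SRSF3-OE replicate 1) and with upper-quartile scaling (0.212), total counts alone (0.08 and adjusted p = 0.278) and no filter (0.0664). The 3xSR call was lost without 3xCTL replicate 1 or 3 or 3xSR replicate 1 or 3 (adjusted p up to 0.0786). EIF1AX, the X-linked eIF1A gene, rose in SRSF3-OE (0.47) and SRSF7-OE (0.31), and EIF5, the GTPase activator of eIF2, in SRSF3-OE (0.52) and SRSF2-OE (0.32). The call of EIF1AX in SRSF7-OE was lost without 1xCtrl replicate 1 or SRSF7-OE replicate 2 or 3. EIF1AD, an eIF1A domain gene, rose in SRSF3-OE (0.21).

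Of the 5 genes of eIF2B, EIF2B4 and EIF2B5 fell in SRSF7-OE and rose in SRSF2-OE and SRSF3-OE. The other 3 did not pass the test in SRSF7-OE, with EIF2B1 at -0.14, EIF2B2 at -0.04 and EIF2B3 at 0.04. EIF2B5, the catalytic epsilon subunit (chr3:184135038-184146112, plus strand), was at 129, 123 and 129 CPM in 1xCtrl, 143, 151 and 146 in SRSF2-OE, 142, 151 and 147 in SRSF3-OE and 108, 107 and 95.8 in SRSF7-OE. All SRSF7-OE libraries lay below, and all SRSF2-OE and SRSF3-OE libraries above, every control library. EIF2B5 fell in SRSF7-OE (-0.30, SE 0.058, adjusted p = 0.0040 by edgeR) and rose in SRSF2-OE and SRSF3-OE (0.21 each, adjusted p = 0.021 and 0.017). Set directly against each other, SRSF7-OE was lower than SRSF2-OE by 0.50 (adjusted p = 6.1e-05 by edgeR) and than SRSF3-OE by 0.50 (2.3e-05). The rise in SRSF2-OE was not called without 1xCtrl replicate 1 or 3 or SRSF2-OE replicate 2 or 3 (adjusted p up to 0.0937), and that in SRSF3-OE not without 1xCtrl replicate 1 or 3 or SRSF3-OE replicate 2 or 3 (up to 0.0880). Both were lost with total counts alone (0.0523 and 0.189), and the latter with upper-quartile scaling (0.149).

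EIF2B4, the delta subunit, was at 98.8, 105 and 99.7 CPM in 1xCtrl, 118, 119 and 120 in SRSF2-OE, 121, 124 and 121 in SRSF3-OE and 90.2, 91.8 and 84.0 in SRSF7-OE, so it showed the same order. It rose in SRSF3-OE (0.27, adjusted p = 0.0017) and SRSF2-OE (0.23, adjusted p = 0.0062) and fell in SRSF7-OE (-0.19, adjusted p = 0.025 by edgeR). The fall was lost without SRSF7-OE replicate 3 (adjusted p = 0.0784) and the rise in SRSF2-OE without 1xCtrl replicate 1 or 3 or any of the SRSF2-OE replicates (0.15 and adjusted p = 0.104 without 1xCtrl replicate 1). With total counts alone the rise in SRSF3-OE was 0.16 (adjusted p = 0.028 by edgeR). The direct difference between SRSF7-OE and SRSF3-OE was -0.46 (adjusted p = 2.2e-05 by edgeR). In the first table EIF2B4 did not pass the test in either line (with the GC trend removed it fell in MYC-OE, -0.10, adjusted p = 0.042), at 101, 106 and 104 CPM in 3xSR and 95.2, 92.2 and 99.5 in MYC-OE against 105, 101 and 103 in 3xCTL. EIF2B5 rose in 3xSR (0.17, adjusted p = 0.039 by edgeR; 125, 134 and 139 CPM against 114, 125 and 116), a call lost without 3xCTL replicate 1 or 3 or 3xSR replicate 2 or 3 (up to 0.172), with upper-quartile scaling (0.0526) and with no filter (0.0594). EIF2B2, the beta subunit, rose in 3xSR, SRSF2-OE and SRSF3-OE (0.23, 0.29 and 0.32). Its call in 3xSR was lost without 3xCTL replicate 1 or 3 or 3xSR replicate 1 or 3. EIF2B1, the alpha subunit, fell in MYC-OE (-0.17), a call lost with the replicate block and without MYC-OE replicate 1 or 2. EIF2B3, the gamma subunit, passed the test in none of the 5 lines with all libraries. With the GC trend removed EIF2B3 rose in SRSF3-OE (0.22, adjusted p = 0.022 by edgeR).

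Of the 13 eIF3 subunit genes, 11 rose in SRSF3-OE and 9 in SRSF2-OE, with medians of 0.37 and 0.24 log2. In SRSF3-OE, EIF3E (0.55), EIF3B (0.48) and EIF3M (0.47) rose, and in SRSF7-OE EIF3D and EIF3H. The call of EIF3D in SRSF7-OE was lost without 1xCtrl replicate 1 or SRSF7-OE replicate 2 or 3. The core scaffold gene EIF3A, at a mean of 574 CPM in 1xCtrl, rose in SRSF3-OE (0.39) and did not pass the test in SRSF2-OE (0.06); SRSF3-OE against SRSF2-OE was 0.33 (adjusted p = 0.0020 by edgeR). With all libraries and the main settings, no eIF3 gene rose in 3xSR and 2 fell. In MYC-OE EIF3D rose (0.17) and 3 fell, and the EIF3D call was lost without MYC-OE replicate 1 or 2. Without 3xCTL replicate 2, EIF3E, EIF3H and EIF3M rose in 3xSR as well (0.28, 0.19 and 0.22). EIF3G then fell in 3xSR (-0.30, adjusted p = 0.0011 by edgeR). In MYC-OE, EIF3E, EIF3H, EIF3I, EIF3L and EIF3M rose with that library left out (0.22, 0.19, 0.16, 0.14 and 0.14). With the GC trend removed, EIF3E, EIF3F, EIF3H, EIF3I and EIF3M rose in MYC-OE (0.21, 0.12, 0.16, 0.12 and 0.14). Under that setting EIF3B and EIF3D rose in 3xSR (0.16 and 0.13) and EIF3A fell (-0.12). The genes that fell with all libraries and the main settings were EIF3K and EIF3J in both lines, and EIF3G in MYC-OE (-0.24, adjusted p = 0.042 by edgeR). In SRSF3-OE EIF3G was at 0.33 and did not pass the test (adjusted p = 0.17 by edgeR). It rose there with the GC trend removed (0.50, adjusted p = 4.9e-06 by edgeR). Without 1xCtrl replicate 2 it also rose there (0.61, adjusted p = 4.3e-05 by edgeR), and in the SRSF2 and SRSF7 lines (0.35 and 0.32). The EIF3G transcript is 60.3% GC, and with the GC trend removed the gene was not called in SRSF2-OE, SRSF7-OE or 3xSR.

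EIF3K (chr19:38619082-38636955, plus strand) encodes a small peripheral subunit of eIF3. It was at 168, 178 and 173 CPM in 3xCTL, 135, 134 and 137 in 3xSR and 88.6, 85.1 and 85.0 in MYC-OE. The groups were fully separate and in the order 3xCTL, 3xSR, MYC-OE. The log2 fold change was -1.0 in MYC-OE (SE 0.046, adjusted p = 1.7e-08 by edgeR) and -0.36 in 3xSR (SE 0.045, adjusted p = 0.00012), and MYC-OE was below 3xSR by 0.65 (adjusted p = 2e-06). No other of the 47 genes fell as far in any line. In 1xCtrl it was at 129, 126 and 122 CPM, and it was at 108, 99.3 and 96.2 in SRSF2-OE, a fall of 0.31 on the log2 scale (SE 0.060, adjusted p = 0.0024 by edgeR). SRSF3-OE libraries, at 140, 139 and 141 CPM, lay above the controls (0.16, adjusted p = 0.064 by edgeR) and SRSF7-OE libraries, at 109, 119 and 107 CPM, below them (-0.17, adjusted p = 0.069); neither passed the test. With the GC trend removed both did (0.23, adjusted p = 0.0026, and -0.16, adjusted p = 0.027). The SRSF3-OE level was above that of SRSF2-OE (0.47, adjusted p = 0.00010 by edgeR) and of SRSF7-OE (SRSF7-OE against SRSF3-OE -0.33, adjusted p = 0.00084). The calls of EIF3K in MYC-OE, 3xSR and SRSF2-OE held without any 1 library and under every other setting tried.

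EIF3J (chr15:44537057-44563029, plus strand), a loosely bound subunit that acts at the mRNA entry channel, moved in opposite directions in the 2 tables. It was at 207, 239 and 190 CPM in 3xCTL, 187, 169 and 179 in 3xSR and 146, 137 and 134 in MYC-OE. The fall was 0.61 log2 in MYC-OE (SE 0.077, adjusted p = 8.2e-05 by edgeR); in 3xSR the log2 fold change was -0.25 (adjusted p = 0.030), and that call was lost without 3xSR replicate 2 or 3 (adjusted p up to 0.0867), while without 3xCTL replicate 2 the value was -0.16 (adjusted p = 0.048). Against 160, 136 and 169 CPM in 1xCtrl, it was at 191, 179 and 175 CPM in SRSF2-OE, 207, 196 and 197 in SRSF3-OE and 148, 158 and 152 in SRSF7-OE. SRSF2-OE and SRSF3-OE libraries lay above the controls and SRSF7-OE libraries among them. The rise was 0.37 in SRSF3-OE (SE 0.075, adjusted p = 0.0024 by edgeR) and 0.23 in SRSF2-OE (adjusted p = 0.043), the latter lost without 1xCtrl replicate 1 or 2 or SRSF2-OE replicate 1 or 2 (0.15 and adjusted p = 0.132 without SRSF2-OE replicate 1) and with upper-quartile scaling (0.0725), total counts alone (0.088) or the replicate block (0.0635).

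EIF3H, a subunit outside the conserved core, was at 267, 248 and 278 CPM in 1xCtrl, 334, 315 and 309 in SRSF2-OE, 381, 351 and 362 in SRSF3-OE and 300, 315 and 296 in SRSF7-OE. The SRSF3-OE libraries were above all others of that table. EIF3H rose by 0.47 in SRSF3-OE (SE 0.061, adjusted p = 9.9e-05 by edgeR), 0.27 in SRSF2-OE (0.0056) and 0.20 in SRSF7-OE (0.038); the last was lost without 1xCtrl replicate 1 or any of the SRSF7-OE replicates (adjusted p up to 0.0933) and with upper-quartile scaling (0.133) or the replicate block (0.0636). EIF3C, which rose in SRSF2-OE and SRSF3-OE (0.21 and 0.31), shares nearly its whole sequence with EIF3CL and held 52.4% to 54.2% of the counts of the pair, so its counts cannot be split with certainty.

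**Figure D3:**
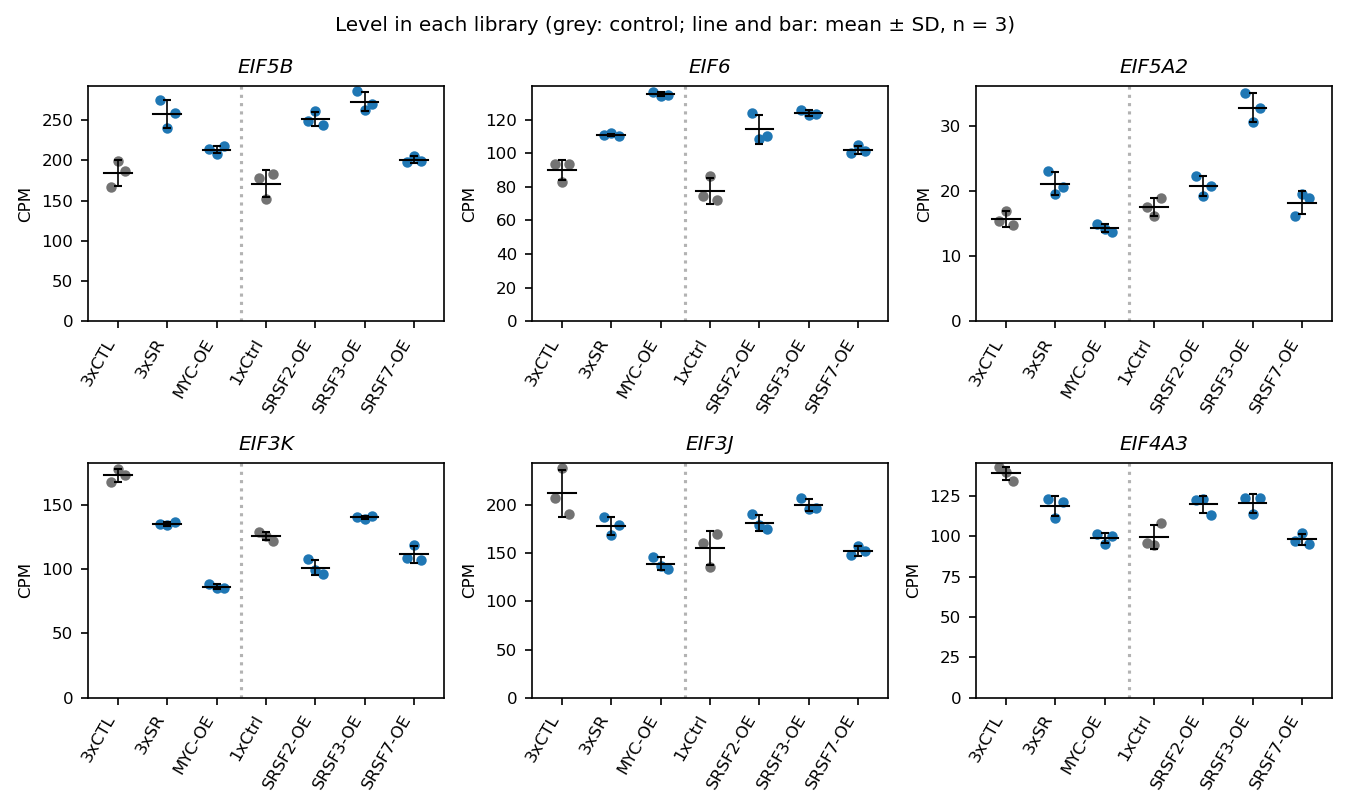
CPM of 6 genes in each of the 21 libraries (points), with the mean and SD of each group (n = 3); control groups are grey and the dotted line separates the 2 tables. EIF3K falls from 168 to 178 CPM in 3xCTL to 85.0 to 88.6 CPM in MYC-OE, and EIF5A2 is highest in SRSF3-OE, at 30.6 to 35.0 CPM.

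Among the 10 genes of cap binding and the eIF4 group, 7 rose in SRSF3-OE, 6 in SRSF2-OE and none in SRSF7-OE, and none fell in these lines. In 3xSR and in MYC-OE EIF4A2 rose and EIF4A3 fell, and the other 8 did not pass the test. Without 3xCTL replicate 2, EIF4A1 rose in both (0.20 and 0.21), and in 3xSR EIF4G2 rose (0.24) and EIF4H fell (-0.20). EIF4A2 and EIF4A3 encode helicases close in sequence to eIF4A1, and eIF4A3 acts in the exon junction complex laid down at splicing rather than in cap-dependent initiation.

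EIF4A2 (chr3:186783205-186789900, plus strand) was at 686, 801 and 700 CPM in 3xCTL, 905, 954 and 947 in 3xSR and 833, 843 and 831 in MYC-OE. Both lines were above all control libraries. The rise was 0.36 in 3xSR (SE 0.060, adjusted p = 0.00079 by edgeR) and 0.20 in MYC-OE (adjusted p = 0.022), where it was lost without 3xCTL replicate 1 or 3 or any of the MYC-OE replicates (adjusted p up to 0.0731). In the second table the libraries were at 1015, 901 and 1082 CPM in 1xCtrl, 1079, 1235 and 1191 in SRSF2-OE, 1136, 1247 and 1185 in SRSF3-OE and 898, 938 and 894 in SRSF7-OE. SRSF2-OE overlapped the control and SRSF3-OE did not. EIF4A2 rose by 0.23 and 0.25 in the SRSF2 and SRSF3 lines (adjusted p = 0.047 and 0.024 by edgeR) and was at -0.13 in SRSF7-OE (0.26), where it fell without 1xCtrl replicate 2 (-0.19, adjusted p = 0.036); SRSF7-OE was lower than SRSF3-OE by 0.39 (0.0015). Both rises were lost without 1xCtrl replicate 1 or 2 or replicate 2 or 3 of the line (0.15 and adjusted p = 0.153 in SRSF2-OE without its replicate 2; up to 0.0661 in SRSF3-OE), with upper-quartile scaling (0.0829 and 0.133) and with total counts alone (0.100 and 0.149). The rise in SRSF2-OE was also lost with the replicate block (0.0757).

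EIF4A3 (chr17:80135214-80147183, minus strand) was at 143, 140 and 135 CPM in 3xCTL, 123, 112 and 122 in 3xSR and 101, 95.4 and 100 in MYC-OE. As for EIF3K and EIF3J, the 3 groups did not overlap and MYC-OE was lowest. The log2 fold change was -0.49 in MYC-OE (SE 0.053, adjusted p = 2.3e-05 by edgeR) and -0.23 in 3xSR (SE 0.053, adjusted p = 0.0072), and MYC-OE was below 3xSR by 0.26 (adjusted p = 0.0025). With single factors EIF4A3 was at 95.9, 94.6 and 108 CPM in 1xCtrl, 122, 123 and 114 in SRSF2-OE, 124, 114 and 124 in SRSF3-OE and 97.3, 102 and 95.4 in SRSF7-OE. It rose by 0.27 in both SRSF2-OE and SRSF3-OE (adjusted p = 0.011 and 0.0071 by edgeR) and overlapped the control in SRSF7-OE (-0.02, adjusted p = 0.88). These rises were lost without 1xCtrl replicate 1 (0.0710 and 0.0551), without SRSF2-OE replicate 1 or 2 and without SRSF3-OE replicate 3, and the second with total counts alone (0.16, adjusted p = 0.0623).

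Against the controls, with all libraries and the main settings, the remaining eIF4 genes passed the test in the second table alone. With the GC trend removed EIF4G1 rose in 3xSR and MYC-OE (0.11 and 0.15) and EIF4E2 fell in MYC-OE (-0.14). Set against 3xSR, MYC-OE was lower in EIF4G2 (-0.28, adjusted p = 0.0045 by edgeR) and higher in EIF4G1 and EIF4H (0.19 each, adjusted p = 0.016 and 0.038). After removal of the GC trend these were -0.16, 0.03 and 0.14, and the latter 2 were no longer called (adjusted p = 0.58 and 0.052). EIF4A1, the main helicase of cap-dependent initiation, rose in SRSF2-OE and SRSF3-OE (0.37 and 0.47), EIF4G1, the scaffold that joins cap and ribosome, by 0.24 and 0.31, and EIF4G2, a relative that lacks the cap-binding contact, by 0.30 and 0.32. EIF4E, the cap-binding protein, rose in SRSF3-OE (0.48, adjusted p = 0.00062 by edgeR) and was at 0.11 in SRSF2-OE (0.39); SRSF3-OE was above SRSF2-OE by 0.37 (0.0041). With the GC trend removed EIF4E rose in SRSF2-OE too (0.17, adjusted p = 0.019) and the difference between the lines was 0.22 (0.0030). EIF4E2, a cap-binding relative, rose in SRSF2-OE (0.22). EIF4B, a helper of the helicase, was at 362, 329 and 380 CPM in 1xCtrl and 429, 382 and 413 in SRSF3-OE, with groups that touched but did not overlap (0.19, adjusted p = 0.043 by edgeR). That call was lost without 1xCtrl replicate 1 or 2 or SRSF3-OE replicate 1 or 3 (0.11 and adjusted p = 0.218 without SRSF3-OE replicate 1) and with upper-quartile scaling (0.238), total counts alone (0.08 and adjusted p = 0.319), no filter (0.0915), at least 10 counts in every library (0.0596) or the replicate block (0.0675). EIF4G3 and EIF4H, another helper of the helicase, passed the test in no line with all libraries. Without 1xCtrl replicate 2, EIF4G3 fell in the SRSF2, SRSF3 and SRSF7 lines (-0.28, -0.23 and -0.18) and EIF4H rose (0.22, 0.29 and 0.33). EIF4A1 held 69.7% to 89.1% of its counts summed with its copies and the genes that overlap it on the same strand, among them the readthrough gene SENP3-EIF4A1, so its share depends on how reads were assigned.

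EIF6, which keeps the large ribosomal subunit from joining too early, rose in all 5 lines. The gene (chr20:35278911-35284985, minus strand) was at 93.5, 83.0 and 93.5 CPM in 3xCTL, 111, 112 and 110 in 3xSR and 137, 134 and 135 in MYC-OE, and these 3 groups were fully separate. The rise was 0.30 in 3xSR (SE 0.053, adjusted p = 0.0012 by edgeR) and 0.59 in MYC-OE (SE 0.053, adjusted p = 5.3e-06), and MYC-OE was above 3xSR by 0.28 (adjusted p = 0.0016). With the GC trend of each library removed the rise in 3xSR was 0.46 and MYC-OE was above 3xSR by 0.11 (adjusted p = 0.044). Single lines were compared with 1xCtrl, where it was at 74.3, 86.3 and 71.9 CPM, and it was at 124, 109 and 110 in SRSF2-OE, 126, 123 and 124 in SRSF3-OE and 99.9, 105 and 101 in SRSF7-OE. Each line lay above the controls, by 0.56 (adjusted p = 0.00017), 0.68 (2.4e-05) and 0.40 (0.0031 by edgeR). The SRSF7-OE call was lost without 1xCtrl replicate 1 (0.32, adjusted p = 0.0554).

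The 2 genes of eIF5A differed. EIF5A2 (chr3:170888415-170908693, minus strand), the isoform gene that most tissues keep low, had the lowest level per kilobase of exon among the 47, a mean of 2.80 CPM per kilobase in 3xCTL, against 222 for EIF5A and 776 for EEF1A1, the highest. It was at 17.5, 16.1 and 18.9 CPM in 1xCtrl and 35.0, 30.6 and 32.7 CPM in SRSF3-OE. The groups were far apart, and the rise of 0.91 (SE 0.091, adjusted p = 1.3e-05 by edgeR) was larger than that of any other of the 47 genes in any line. It was at 22.3, 19.3 and 20.8 CPM in SRSF2-OE (0.25, adjusted p = 0.064, and 0.37, adjusted p = 0.00096, with the GC trend removed) and 16.2, 19.5 and 18.9 in SRSF7-OE (0.06, adjusted p = 0.74 by edgeR), and SRSF3-OE was above both (0.66 over SRSF2-OE, adjusted p = 0.00018; SRSF7-OE against SRSF3-OE -0.85, 1.2e-05). In the first table it was at 15.3, 17.0 and 14.7 CPM in 3xCTL, 23.1, 19.6 and 20.7 in 3xSR and 15.0, 14.1 and 13.7 in MYC-OE. EIF5A2 rose in 3xSR (0.43, SE 0.080, adjusted p = 0.0017 by edgeR), not in MYC-OE (-0.14, adjusted p = 0.22), and the lines differed by 0.57 (adjusted p = 0.00024). With the GC trend of each library removed the 3xSR rise was 0.245 (adjusted p = 0.0058 by edgeR) and MYC-OE against 3xSR was at -0.22 (adjusted p = 0.0092).

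EIF5A, the abundant form, was at 444, 466 and 400 CPM in 1xCtrl, 637, 587 and 605 in SRSF2-OE, 544, 534 and 545 in SRSF3-OE and 545, 570 and 562 in SRSF7-OE. All single lines were clear of the control, by 0.48 (SE 0.063, adjusted p = 0.00016), 0.31 (0.0022) and 0.36 (0.0023 by edgeR); the second was lost without 1xCtrl replicate 1 or SRSF3-OE replicate 1 or 3 (up to 0.0575), and was 0.20 and still called without 1xCtrl replicate 3 or with total counts alone. In the first table EIF5A was at 635, 605 and 631 CPM in 3xCTL, 592, 612 and 597 in 3xSR and 716, 710 and 691 in MYC-OE. It rose in MYC-OE (0.18, SE 0.044, adjusted p = 0.0080 by edgeR) and overlapped the control in 3xSR (-0.06, adjusted p = 0.39).

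Of the 8 elongation factor genes, MYC-OE had 3 that rose, SRSF3-OE 2 and SRSF7-OE 1, while 1 fell in SRSF2-OE and none was called in 3xSR. EEF1A1, the most highly counted of the 47, had means between 4219 and 5149 CPM over the groups and passed the test in no line with all libraries, nor did EEF1B2 and EEF1D, subunits of the exchange factor. After removal of the GC trend EEF1A1 rose in MYC-OE, SRSF2-OE and SRSF7-OE (0.19, 0.23 and 0.22), and EEF1B2 rose in SRSF3-OE and SRSF7-OE (0.13 and 0.21) and fell in 3xSR (-0.11). Without 1xCtrl replicate 2, EEF1D rose in the SRSF2, SRSF3 and SRSF7 lines (0.65, 0.46 and 0.49), and without 3xCTL replicate 2 it fell in 3xSR (-0.32). The EEF1D transcript is 60.6% GC. With the GC trend removed EEF1D rose by 0.35 in SRSF2-OE and 0.29 in SRSF3-OE, and was not called in SRSF7-OE or 3xSR. EEF2, the translocase, did not pass against a control either, although it was higher in MYC-OE than in 3xSR (744, 727 and 796 against 557, 500 and 477 CPM; 0.56, adjusted p = 0.011 by edgeR, and 0.31, adjusted p = 0.018, with the GC trend removed). Without 3xCTL replicate 2 it fell in 3xSR (-0.46, adjusted p = 0.00041), without 3xCTL replicate 1 it rose in MYC-OE (0.40, adjusted p = 0.030), and without 1xCtrl replicate 2 it rose in SRSF3-OE and SRSF7-OE (0.48 and 0.78, adjusted p = 0.037 and 0.0048 by edgeR). It was at 415, 754 and 364 CPM in 1xCtrl and at 758, 497 and 650 CPM in 3xCTL, and the library standing apart in each set was the 1 with the different GC dependence; its transcript is 59.9% GC. EEF1A2, the muscle and nerve form of eEF1A, at 64.8% GC, behaved alike, with 42.0, 84.2 and 31.5 CPM in 1xCtrl and 88.4, 53.6 and 73.3 CPM in 3xCTL.

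EEF1A2 rose in MYC-OE (102, 107 and 116 CPM; 0.59, SE 0.16, adjusted p = 0.019 by edgeR), a call lost without 3xCTL replicate 3 or MYC-OE replicate 3 (adjusted p up to 0.0610), and its level in 3xSR was 54.6, 57.5 and 51.5 CPM (-0.40, adjusted p = 0.096). The value in 3xSR depended on the setting: it was -0.57 and called without 3xCTL replicate 2 (adjusted p = 0.00015 by edgeR), called by DESeq2 (-0.39, adjusted p = 0.013), and -0.10 with the GC trend removed (adjusted p = 0.14). MYC-OE and 3xSR did not overlap, and MYC-OE was above 3xSR by 0.99 (SE 0.16, adjusted p = 0.0018 by edgeR), or by 0.57 (SE 0.049, adjusted p = 6.8e-07) with the GC trend removed. Without 1xCtrl replicate 2 EEF1A2 rose in SRSF7-OE (0.96, adjusted p = 0.0090), and with the GC trend removed it rose there and in SRSF2-OE (0.32 and 0.23). EEF1G, the gamma subunit of the exchange factor, was at 656, 632 and 649 CPM in 3xCTL, 681, 747 and 646 in 3xSR and 814, 778 and 749 in MYC-OE, with MYC-OE alone clear of the control. It rose by 0.27 in MYC-OE (SE 0.059, adjusted p = 0.0033 by edgeR). From 580, 562 and 533 CPM in 1xCtrl it rose to 746, 659 and 684 in SRSF3-OE (0.32, adjusted p = 0.018) and 725, 780 and 683 in SRSF7-OE (0.39, adjusted p = 0.012 by edgeR). Both were lost without 1xCtrl replicate 1 or 3, the first also without SRSF3-OE replicate 1 or 3 (up to 0.172) and with upper-quartile scaling (0.0562) or total counts alone (0.0978), the second without SRSF7-OE replicate 1 or 2 (up to 0.0740). EEF1G held 71.4% to 95.9% of its counts summed with its copies and an overlapping gene on the same strand, so that its level also follows how reads were assigned.

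EEF2K (chr16:22206282-22288732, plus strand), the kinase that inactivates eEF2, was at 59.6, 64.2 and 64.6 CPM in 3xCTL, 57.8, 59.3 and 60.9 in 3xSR and 75, 77.2 and 71.9 in MYC-OE. MYC-OE was above both other groups (0.25 over 3xCTL, SE 0.052, adjusted p = 0.0026 by edgeR; 0.33 over 3xSR, adjusted p = 0.00049). Levels were 60.7, 62.6 and 62.1 CPM in 1xCtrl and 52.0, 53.1 and 50.4 in SRSF2-OE, where it fell (-0.25, SE 0.053, adjusted p = 0.0039 by edgeR). SRSF3-OE (61.2, 63.3 and 61.4 CPM) and SRSF7-OE (59.8, 62.6 and 57.0 CPM) overlapped the control. EEF1E1, a scaffold protein of the aminoacyl-tRNA synthetase complex, rose in SRSF3-OE (0.33, adjusted p = 0.0037 by edgeR).

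MYC binds DNA with MAX at the E-box CACGTG, so the 250 bases before each RefSeq gene start (GRCh38.p14) were searched for these letters, which read the same on both strands. Of the 47 genes 39 had a promoter entry, and 10 of them (25.6%) held at least 1 match, beside 2110 of 27305 genes in the table (7.73%). Those 27305 genes were taken whether or not they were expressed here, while all 47 had enough reads to be tested. The shares are therefore not of matched sets, and their difference was not tested. EIF3H, EIF3A, EIF3G, EIF3E, EIF3L, EIF2S2, EEF1A2 and EEF1D had no promoter entry, so they were not searched. Every match is shown with 12 bases on each side, 5′ to 3′ on the gene's strand and with CACGTG in capitals, because EIF3K and EIF4A3, which fell in MYC-OE, and EEF2K, which rose there, are among the 10 genes. EIF3J, the other gene with a deep fall in MYC-OE, had an entry and no match in this window.
EIF3K, chr19:38619073-38619102, plus strand: cgaggaagaagtCACGTGgcagccggaaag
EIF4A3, chr17:80147232-80147261, minus strand: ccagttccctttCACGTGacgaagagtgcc
EEF2K, chr16:22206207-22206236, plus strand: cctgggggcggcCACGTGagcgccacgccg
EIF5A2, chr3:170908807-170908836, minus strand: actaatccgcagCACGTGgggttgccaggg
EIF5A2, chr3:170908782-170908811, minus strand: cagggcgctcttCACGTGactgggcggagc
EIF4G1, chr3:184314450-184314479, plus strand: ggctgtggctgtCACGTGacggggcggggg
EIF4G1, chr3:184314527-184314556, plus strand: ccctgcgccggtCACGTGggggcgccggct
EIF4E, chr4:98929341-98929370, minus strand: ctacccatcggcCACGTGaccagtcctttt
EIF4E, chr4:98929188-98929217, minus strand: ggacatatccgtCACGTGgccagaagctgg
EIF4H, chr7:74174145-74174174, plus strand: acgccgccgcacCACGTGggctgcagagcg
EIF4B, chr12:53006422-53006451, plus strand: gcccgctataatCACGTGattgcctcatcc
EIF3F, chr11:7987257-7987286, plus strand: aaagctctagctCACGTGgtgtatattcag
EIF2B3, chr1:44986757-44986786, minus strand: gacagagggacaCACGTGtcgaatgctcct
The match began 103 bases before the RefSeq start of EIF3K, 121 before EIF4A3 and 59 before EEF2K. The gene coordinates given above are those of GENCODE, whose starts differ from RefSeq's: by them the EIF4A3 and EEF2K matches began 66 and 63 bases before the gene, while those of EIF3K, EIF4E, EIF4B and EIF3F and the second of EIF4G1 lay inside it. In MYC-OE EIF3K and EIF4A3 fell (-1.0 and -0.49), EEF2K rose (0.25), and the other 7 genes with a match were not called with all libraries and the main settings, from -0.14 for EIF5A2 to 0.14 for EIF4G1. EIF4G1 rose there by DESeq2 (adjusted p = 0.045), by limma-voom (0.044) and with upper-quartile scaling (0.040 by edgeR). It also rose with the GC trend removed (0.15, adjusted p = 0.0091 by edgeR) and without 3xCTL replicate 1 (0.17, adjusted p = 0.041). EIF3F rose with the GC trend removed (0.12, adjusted p = 0.043 by edgeR), and EIF4E fell without 3xCTL replicate 3 (-0.19, adjusted p = 0.028). A match of these letters is a description of the sequence, and binding was not measured here.

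Where MYC-OE and 3xSR were compared directly, 20 of the 47 differed, 9 higher and 11 lower in MYC-OE, where 34.9% of all genes were called (17.3% higher, 17.6% lower). Scaling by total counts gave 7 higher and 14 lower, and with the GC trend removed 13 were higher and 13 lower (37.6% of all genes called). These were in part other genes. With the GC trend removed EIF1AX, EIF4G1, EIF4H, EIF5A, EIF5B and EEF1G were no longer called. EEF1D and EEF1E1 were then called with the sign changed (0.15 to -0.13 and -0.16 to 0.10). The largest difference between MYC-OE and 3xSR was in EEF1A2 (0.99, or 0.57 with the GC trend removed) and the deepest in EIF3K (-0.65). Between the single lines, 11 differed between SRSF3-OE and SRSF2-OE (10 higher and 1 lower in SRSF3-OE; 26.8% of all genes called, 14.1% higher and 12.6% lower), 17 between SRSF7-OE and SRSF2-OE (2 higher and 15 lower in SRSF7-OE; 24.2% called, 12.8% higher and 11.5% lower) and 26 between SRSF7-OE and SRSF3-OE, all of them lower in SRSF7-OE (35.2% called, 17.3% higher and 17.8% lower). The count of 17 was 11 without SRSF7-OE replicate 3. With total counts alone the first split was 8 and 2 and the second 4 and 13 (of all genes 3986 higher and 2303 lower, against 3108 and 2791). The difference between SRSF7-OE and SRSF3-OE had a median of -0.26 over the 47 genes and 0.02 over all genes. With total counts alone 20 were lower and 1 was higher there, and of all genes 5629 were higher and 3076 lower, against 4226 and 4343.

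The tables have separate controls, so the effect in the libraries labelled 3xSR, where SRSF3 and SRSF7 rose and SRSF2 did not, could be set against that in SRSF3-OE. In a joint fit of 25013 genes, the log2 fold change in 3xSR minus that in SRSF3-OE passed the test in 19 of the 47 genes, all lower, where 17.8% of all genes were called, 10.8% higher and 7.02% lower. The median of the difference was -0.26 over the 47 genes and 0.04 over all genes. Among the genes called, the deepest differences were in EIF3J (-0.60, SE 0.11, adjusted p = 0.00063 by edgeR), EIF3K (-0.50, SE 0.071, adjusted p = 5.5e-05), EIF4A3 (-0.49, SE 0.083, adjusted p = 0.00033) and EIF5A2 (-0.46, SE 0.12, adjusted p = 0.011). EIF3G was at -0.52 without passing the test (adjusted p = 0.11 by edgeR), and passed it with the GC trend removed (-0.49, adjusted p = 1.5e-05). Of the genes that fell in 3xSR, EIF3J and EIF4A3 had risen in SRSF3-OE, and EIF3K was above its control there without passing the test. With total counts alone 10 were lower and 1 higher (of all genes 3557 higher and 1102 lower, against 2698 and 1755), and with the GC trend removed 31 were lower and none higher (3468 and 3597, 28.2% of all genes called). A difference between the tables cancels in this comparison only where it acted alike on control and overexpressing cells, and how far that holds cannot be told from these libraries.

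**Figure D4:**
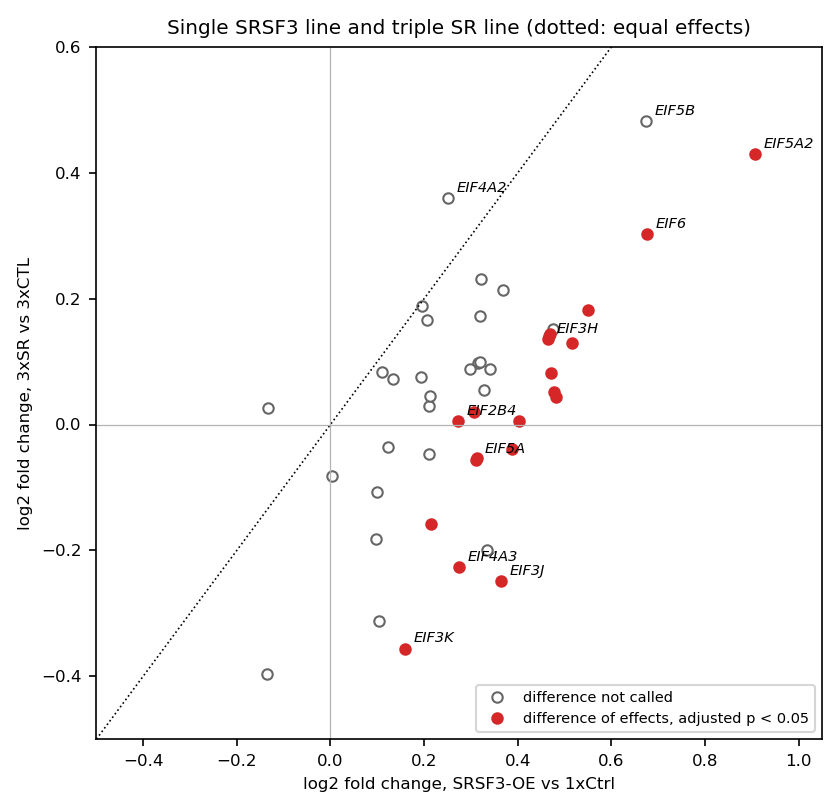
Log2 fold change in 3xSR against 3xCTL (vertical axis) and in SRSF3-OE against 1xCtrl (horizontal axis) for the 47 genes; red points differ between the effects at an adjusted p under 0.05 and the dotted line marks equal effects. All 19 red points lie below the line, with EIF3J, EIF4A3 and EIF3K below 0 on the vertical axis.

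The effect in 3xSR was also set against the sum of the 3 single effects. It was lower than the sum in 29 genes and higher in 1, EIF4G3 (0.49; not called with RLE scaling, adjusted p = 0.053), where 19.9% of all genes were called, 11.3% higher and 8.59% lower. The widest departures were in EIF6 (-1.30, SE 0.18, adjusted p = 5.7e-05 by edgeR), EIF5A (-1.18, SE 0.15, adjusted p = 1.7e-05) and EIF5B (-0.95, SE 0.19, adjusted p = 0.0012). The sum takes the 1xCtrl libraries 3 times, and those held the smallest part of counts in the 47 genes, as given above. With total counts alone 18 were lower and 2 higher, and of all genes 3678 were higher and 1582 lower, against 2828 and 2149. The MYC-OE effect minus the SRSF7-OE effect passed in 9 genes, 3 higher and 6 lower, where 13.7% of all genes were called, 7.6% higher and 6.13% lower. It was deepest in EIF3K (-0.83, SE 0.071, adjusted p = 1e-07 by edgeR) and EIF3J (-0.58, SE 0.11, adjusted p = 0.0011), and EEF2K (0.30) and EIF4A2 (0.34) were higher.

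Other genes of translation were read from lists of 25 controllers of initiation, 19 genes of termination, recycling and factor modification, and 9 mitochondrial factors. Of the controllers, 6 rose and 3 fell in SRSF3-OE, while SRSF2-OE had 4 and 5, SRSF7-OE 4 and 2, 3xSR 3 and 2, and MYC-OE 5 and 5. Of all genes, 15.0% rose and 14.1% fell in SRSF3-OE, 11.6% and 11.9% in SRSF2-OE, and 9.03% and 8.26% in SRSF7-OE. In 3xSR these shares were 15.3% and 13.7%, and in MYC-OE 18.0% and 17.3%. The lists are small, and their counts were not tested against the shares of all genes. PPP1R15A, which guides the phosphatase that reverses eIF2 phosphorylation, rose by 1.22 in SRSF3-OE (SE 0.066, adjusted p = 9.5e-08 by edgeR), 0.56 in 3xSR, 0.51 in SRSF2-OE and 0.37 in MYC-OE and was at 0.02 in SRSF7-OE. EIF4E3, a cap-binding relative of eIF4E, fell in MYC-OE (-0.50, adjusted p = 0.038), SRSF2-OE (-0.53, 0.023) and SRSF3-OE (-0.49, 0.028 by edgeR). PDCD4, an inhibitor of eIF4A, fell in 3xSR (-0.65), SRSF2-OE (-0.37) and SRSF3-OE (-0.41) and rose in SRSF7-OE (0.52, SE 0.064, adjusted p = 0.00028 by edgeR). EIF4EBP1, which holds eIF4E away from eIF4G, rose in MYC-OE (0.73) and SRSF7-OE (0.96).

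Of the 19 genes of termination, recycling and modification, 10 rose and none fell in SRSF3-OE, while SRSF2-OE had 5 and 2, SRSF7-OE 3 and 1, 3xSR 3 and none, and MYC-OE 6 and 1. DHPS, the enzyme that begins hypusine formation on eIF5A, fell by 0.78 in MYC-OE (SE 0.082, adjusted p = 1.8e-05 by edgeR), where EIF5A rose, and fell in SRSF2-OE and SRSF7-OE (-0.39 and -0.50), where EIF5A also rose. In SRSF3-OE EIF5A rose as well, and DHPS was not called lower. Of the 9 mitochondrial factors, 3 rose and none fell in SRSF3-OE, while SRSF2-OE had 1 and none, SRSF7-OE none and 1, 3xSR 2 and none, and MYC-OE 4 and 1. Beside the counts of both lists, 29.2% of all genes were called in SRSF3-OE, 23.5% in SRSF2-OE and 17.3% in SRSF7-OE. The share was 29.0% in 3xSR and 35.3% in MYC-OE, and these counts were not tested against it either.

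In fits of only the 2 groups compared, 19 calls among the genes given library by library were lost. These were EIF1, EIF2S2, EIF2B5 and EIF3J in 3xSR, EEF1A2 in MYC-OE, and EIF2B4, EIF2B5, EIF3J, EIF4A2 and EIF4A3 in SRSF2-OE. The others were EIF1, EIF2B5, EIF4A2, EIF4A3, EIF4B and EIF5A in SRSF3-OE and EIF2B4, EIF3H and EIF5B in SRSF7-OE.

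Because these are bulk libraries, fewer cells of a kind and less RNA per cell cannot be told apart. At 25 of the 47 genes an annotated exon of another gene lies on the opposite strand and at 10 on the same strand, and the strand setting of the counting is not given in the sources used here, so reads of such pairs may have been counted together.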

How the data were processed

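Per the labels' protocols, DNase-treated total RNA was polyA-selected, made into stranded libraries and sequenced as paired-end reads on a NovaSeq. The authors deposited 2 tables of whole-number counts per gene, not scaled. The submitters' processing notes name Trimmomatic 0.39, STAR, StringTie 2.1.3b and GRCh38.p13; the counting step, its strand setting and the annotation are not given in the sources used here. Identifiers were matched to GENCODE 29 for positions, exon overlap and GC content.

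The tests used edgeR 4.0.16 under R 4.3.3: filterByExpr (minimum count 10, total 15), TMM scaling, robust quasi-likelihood fits over all groups of a table, or over both tables for differences of effects, two-sided, with Benjamini-Hochberg adjustment over all genes tested and a threshold of 0.05. Replicate numbers come from the titles. Alternatives were RLE, upper-quartile and total-count scaling, no filter or at least 10 counts in every library, DESeq2 1.42.0, limma-voom (limma 3.58.1), the replicate block, removal of each library's GC trend (50 bins), only the 2 groups compared, leaving out each replicate, and summing with copies. The genes given library by library are those among the 3 highest or 3 lowest fold changes called, without overlap of the groups, in any line. The 47 genes, the lists and the tests were chosen with earlier results of these data known. No library was left out.

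On counts simulated from the 3xSR and 3xCTL libraries (23160 genes), 42% of 1.25-fold and 96% of 2-fold changes were recovered, with 8% of calls false; for SRSF3-OE and 1xCtrl (24362 genes) 15%, 94% and 9.92%. The simulation changed only 100 genes at each fold, all of them well counted. It held no GC trends and no library standing apart, and far more genes were called in the real libraries. These shares therefore do not give the recovery or the false calls among the results above. Replicates of each group differed by more than counting error.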

Additional observations from a re-analysis of the deposited data

Results flagged for a closer look

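For 14 gene and comparison pairs among the genes described library by library, the effect in one line differed from that in another by edgeR's test of the difference itself (adjusted p under 0.05, log2 scale, 3 libraries in each of 4 groups). The 3xSR effect was below the SRSF3-OE effect in EIF3J (-0.60), EIF3K (-0.50), EIF4A3 (-0.49), EIF5A2 (-0.46), EIF6 (-0.36), EIF5A (-0.35), EIF3H (-0.32) and EIF2B4 (-0.25). The MYC-OE effect was below the SRSF7-OE effect in EIF3K (-0.83), EIF3J (-0.58) and EIF4A3 (-0.46), and above it in EIF4A2 (0.34), EEF2K (0.30) and EIF2B5 (0.23). EIF3K, EIF3J and EIF4A3 appear in both. With total counts alone the 3xSR and SRSF3-OE effects no longer differed past the threshold in EIF6, EIF3H and EIF2B4 (adjusted p = 0.0502, 0.0539 and 0.0578), nor did the MYC-OE and SRSF7-OE effects in EIF2B5 (0.0575).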

How the results depend on the processing

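With the GC trend removed, 18 of the 47 genes were called in 3xSR (38.3%, beside 33.2% of all genes), 24 in MYC-OE (51.1%, beside 43.3%), 24 in SRSF7-OE (51.1%, beside 28.8%), 29 between SRSF7-OE and SRSF2-OE (61.7%, beside 34.3%) and 31 for the 3xSR minus the SRSF3-OE effect (66.0%, beside 28.2%), which was 11 with total counts alone; all genes called rose to 7014 in SRSF7-OE, 7065 for that difference and 5468 for the MYC-OE minus the SRSF7-OE effect. Fits of only the 2 groups called 6 in 3xSR, 14 in SRSF2-OE and 5 in SRSF7-OE, where all genes called were 2251; fewer samples then set the spread. Leaving out 1 replicate gave 6 to 26 in 3xSR, 9 to 22 in MYC-OE, 14 to 26 with SRSF2, 22 to 35 with SRSF3 and 5 to 20 with SRSF7; between lines it gave 16 to 18 (MYC-OE and 3xSR), 9 to 15 (SRSF3-OE and SRSF2-OE), 11 to 18 (SRSF7-OE and SRSF2-OE) and 22 to 24 (SRSF7-OE and SRSF3-OE). All genes called in SRSF7-OE were 7321 without 1xCtrl replicate 2 and 2685 without SRSF7-OE replicate 3. With upper-quartile scaling, SRSF3-OE had 2546 of all genes higher and 4047 lower. The cause of these shifts was not tested.

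Of 56 calls of named genes in the 5 lines, 56 were kept with RLE scaling, DESeq2, limma-voom and GC removal, 45 with upper-quartile scaling, 45 with total counts, 52 without a filter, 55 with the stricter filter and 37 with only the 2 groups; 31 held without each replicate in turn, and none reversed under these alternatives. GC removal added 11 calls among 29 uncalled. Of 38 that could be summed with copies or overlapping genes, 38 held.

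With the replicate block 10 genes were called in 3xSR, 11 in MYC-OE, 22 with SRSF2, 31 with SRSF3 and 7 with SRSF7, and 49 of the 56 calls were kept. Same-numbered libraries did not deviate together (correlation -0.19 to 0.026), and at most 1 of 6 libraries in a comparison correlated best with its own number, so the numbers are not taken to pair them.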
